A study of Mus musculus with 65 samples.

Results

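The step from 16 to 24 months of age under caloric restriction (CR) was examined in the spinal cord of C57BL/6 mice. It rests on 17 of the 65 mice, namely 10 CR mice of 472 to 499 days and 7 CR mice of 673 to 743 days. They were chosen by the diet and the age in days that their labels give, with no measured value used. The 10 younger mice were 5 males and 5 females, and the 7 older mice were 3 males and 4 females. CR mice were fed 100% of a regular ration to 13 weeks of age and were then stepped through 90% and 75% of a fortified feed to 60%, which was kept to the end. The 20 ad libitum (AL) mice of the same ages, 10 of 476 to 499 days and 10 of 704 to 743 days, with 5 males and 5 females at each age, served for comparison.

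CR is a lowered energy intake without malnutrition, and it extends life span in many laboratory rodents. The spinal cord holds motor neurons and interneurons, the oligodendrocytes that wrap long axon tracts in myelin, astrocytes, and microglia, the resident macrophages of the nervous system. In ageing rodent nervous tissue, microglia are known to take up more myelin debris and to carry more complement and lysosomal transcripts.

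RNA of each mouse was labelled with 33P and hybridized to 1 nylon filter spotted with 8448 cDNA clones, called features here. The values are Z scores, in which each array has a mean of 0 and an SD of 1, so a difference of 0.1 is 0.1 SD of an array and not a fold. Of the features, 4875 (57.7%) had 1 gene symbol in the platform annotation. The spinal cord markers Mbp and Gfap had no feature with 1 symbol. The neurofilament gene Nefl lay at a median Z of 1.04 and 0.9 on 2 features in the 16-month CR mice. The other neuron genes Uchl1 and Gap43 lay at 0.575 and -0.155 there. The glutamate transporter gene Slc1a3 of astrocytes lay at -0.4 and -0.775, below the mean of the array, while the astrocyte gene Gja1 lay at 1.14. The muscle gene Mylpf lay at 0.275. These levels come from different clones and are given as they stand, since levels of different features cannot be ranked.

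At 24 months, all 3 CR males were 673 days old and the 4 CR females were 703 to 743 days old. Sex and day of age therefore cannot be told apart among the older CR mice, and the younger age of the males also separates them from the AL mice of 704 days or more. The arrays numbered 22 to 43, 66 and 67, called the second run here although no label names a run, stood apart from the others. The first principal component, with 41.7% of the variance of 37 arrays, lay between -13 and -6.8 in the first run and between 8.8 and 18.1 in the second. The second run held 3 of the 10 younger and 3 of the 7 older CR mice, and 4 of the 10 younger and 6 of the 10 older AL mice. The run was a term in the main fit, and counts without that term are given at the end. For a single AL male of 24 months, the replicate 2, the label fields disagreed, and the counts that depend on it are also given without it.

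One CR mouse of 24 months stood apart from all other mice. Array 11, the CR male replicate 1 of 673 days in the first run, had a value of 21 on the second principal component. The other 36 arrays lay between -8.91 and 8.26. Its mean correlation with the other arrays was 0.947, against 0.952 to 0.973 for the rest. It held the lowest or the highest value of the 7 older CR mice in 55.8% of the features, against 14.1% to 44.9% for each of the other 6. The counts of the CR step, the diet difference and the sex difference are therefore also given without it. So are the values of the leading genes, singly or as a range.

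**Figure D1:**
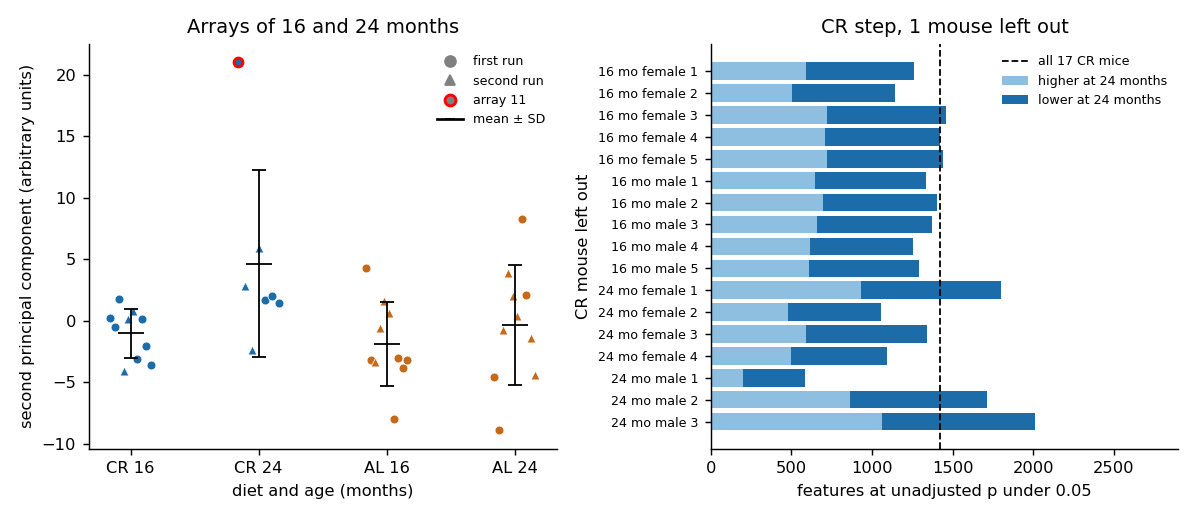
Left, the second principal component (arbitrary units) of each array by diet and age, with circles for the first run, triangles for the second, bars for mean ± SD and array 11 ringed in red at 21. Right, the number of features at an unadjusted p under 0.05 for the CR step when each CR mouse was left out in turn, split by direction, with a dashed line at 1424 for all 17 mice; the bar without the 24-month male replicate 1 ends at 584.

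No feature passed the test for the CR step itself. In limma, with Benjamini-Hochberg adjustment over 8448 features, 0 features (0%) had an adjusted p under 0.05, and the smallest was 0.128. At an unadjusted p under 0.05 there were 1424 features (16.9%), of which 696 (8.24%) were higher and 728 (8.62%) were lower at 24 months. Without array 11 the count was 584, with 199 higher (2.36%) and 385 lower (4.56%), and the smallest adjusted p was 0.64. Leaving out any other CR mouse gave between 1055 and 2010, and 0 adjusted calls each time. The highest count came without another male of 673 days, the replicate 3. The direction of the set also moved with the scaling of the arrays, since scaling by median and MAD gave 1203 higher and 531 lower features.

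The features with small p values differed in kind between the directions. Of the 728 lower features, 34.1% had 1 gene symbol, and of the 696 higher features 60.5% did, against 57.7% of all features. The lower features had a median difference of -0.14, and of -0.11 without array 11, with 351 of them still at an unadjusted p under 0.05. The higher features had a median of 0.115, and of 0.0814 without array 11, and 164 of them stayed under 0.05. In AL mice the same lower features had a median difference of 0.0355 and the higher features one of -0.00159.

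The first steps of the selection in the study's methods ask for a mean Z above 0, a z-ratio of at least 1.5 in either direction and an unadjusted p under 0.05. The ANOVA over age, gender and diet that follows there was not applied here. These first steps took 209 features (2.47%), with 10 higher and 199 lower at 24 months, and 96 features without array 11. Only 56 of the 209 (26.8%) had 1 symbol. Ctsd, which encodes the lysosomal protease cathepsin D, had the largest difference among the 10 higher features, at 0.195. This gene was on a list drawn up with earlier results known.

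The 12 named genes with the smallest p among the lower features were led by Nr2e1, an orphan nuclear receptor of neural stem cells. Its Z score ran from 0.83 to 0.97 in the 10 CR mice of 16 months, with a median of 0.905, and from 0.56 to 0.87 in the 7 of 24 months, with a median of 0.75. All but 1 of the older mice lay below every younger mouse. The difference was -0.179 ± 0.0406 (SE) with a limma adjusted p of 0.128, and -0.146 with an adjusted p of 0.64 without array 11.

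Adamts10, a secreted metalloprotease of the extracellular matrix, ran from -0.11 to 0.24 (median 0.06) at 16 months and from -0.3 to 0.11 (median -0.15) at 24 months. Its difference was -0.187 ± 0.0442 (SE), and -0.149 without array 11, and 5 older mice lay below the younger ones. Nudcd2, a NudC-domain cochaperone, ran from 0.14 to 0.54 (median 0.41) and then from -0.02 to 0.39 (median 0.09), with a difference of -0.206 ± 0.0518 (SE), which was -0.188 without array 11. In Nudcd2 both runs gave a like value, -0.167 in the first and -0.235 in the second. Zfp882, a zinc finger gene, ran from 0.56 to 0.69 (median 0.635) and then from 0.31 to 0.65 (median 0.42), and its difference was -0.223 in the first run, -0.0525 in the second and -0.138 without array 11.

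The other 8 of these genes were Brd3, a bromodomain reader of acetylated histones (-0.15), Ypel1 (-0.194), Tmem19 (-0.149), the ferlin gene Myof (-0.198), Tmc6 (-0.158), Gm16853 (-0.195), the G-CSF receptor gene Csf3r (-0.186) and the cystatin gene Cst12 (-0.146). Without array 11 the differences of the 12 lower genes ran from -0.198 to -0.107. All 12 lay lower in each run and in each sex, and all had a limma adjusted p of 0.128, which was 0.64 to 0.656 without array 11. They were picked by a fit over both runs and sexes, which favours such agreement. Of all 728 lower features with an unadjusted limma p under 0.05, 713 also lay lower in females. Array 11 was the lowest of the 7 older CR mice in 7 of the 12. In AL mice the sign was opposite for 11 of the 12, Cst12 being the exception at -0.0212. For the 12 higher genes named next it was opposite in 8, and over all features the signs were the same in 52.6%. Of the 12 lower genes, 7 were also called for the diet difference described below, so their signs are not separate observations.

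Among the higher features the smallest p belonged to Bnip3l, a receptor for the removal of mitochondria by autophagy. It ran from 0.13 to 0.38 (median 0.26) in the younger CR mice and from 0.27 to 0.47 (median 0.39) in the older ones. The difference was 0.131 ± 0.0319 (SE), with a limma adjusted p of 0.128, and 0.122 without array 11. It was 0.238 in males and 0.0238 in females, and the AL difference was -0.0203. Dock4, an activator of the small GTPase Rac, had a like split, 0.279 in males and 0.0142 in females, about a common difference of 0.147, which was 0.134 without array 11.

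Pbrm1, a subunit of a chromatin remodelling complex, ran from -0.29 to -0.01 (median -0.22) at 16 months and from -0.18 to 0.12 (median -0.01) at 24 months. All 7 older mice lay above the mean of the younger ones, and 3 above all of them, with a difference of 0.159 ± 0.0433 (SE), and 0.127 without array 11. The next were Aimp1, a scaffold of the tRNA synthetase complex (0.123), the Akt phosphatase gene Phlpp2 (0.184), the nonmuscle myosin gene Myh10 (0.191), Gtsf1 of the piRNA pathway (0.161) and the SET-domain gene Setd4 (0.157). They were followed by the single-strand DNA-binding gene Rpa2 (0.173), Taf1d of the RNA polymerase I machinery (0.139), the peroxisomal gene Acbd5 (0.137) and the coatomer subunit gene Cope (0.216). Without array 11 the differences of the 12 higher genes ran from 0.11 to 0.181. The 12 had limma adjusted p values of 0.128 to 0.156, and of 0.64 to 0.695 without array 11, which was the highest older CR mouse in 8 of them. Cope shows that share most plainly, since array 11 lay at -0.23 and the median of the older CR mice was -0.75.

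Other clones of the same genes did not repeat these differences. Of the 24 named genes, 9 had 10 further features, of which 4 had the same direction, 6 the opposite one and 0 an unadjusted p under 0.05. For Bnip3l the other feature differed by -0.0547, for Cope by -0.0654 and for Nudcd2 by 0.0414. Dock4 was the nearest, at 0.106 ± 0.083 (SE).

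**Figure D2:**
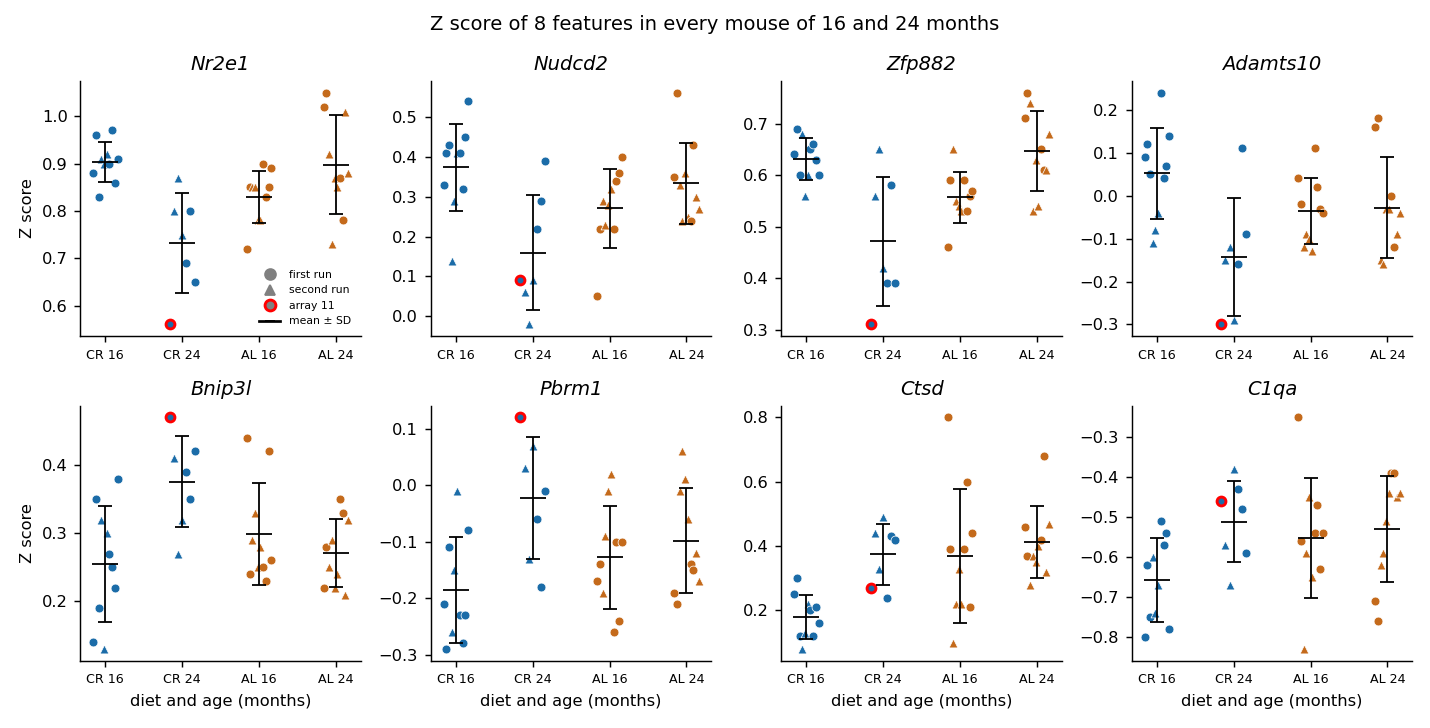
Z score (SDs of 1 array) of 8 features in each of the 37 mice, by diet and age in months, with circles for the first run, triangles for the second, bars for mean ± SD and array 11 ringed in red. Nr2e1, Nudcd2, Zfp882 and Adamts10 lay lower and the other 4 higher at 24 months in the CR mice, and 6 of 7 older CR mice lay below the lowest younger one for Nr2e1; Ctsd is shown for the feature with the smaller p.

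The step was set against the same step in AL mice, which share no mouse with it. In AL mice the test called 0 features (0%), while 559 (6.62%) had an unadjusted p under 0.05. Without the mouse whose label fields disagreed it called 0 as well, and 578 features, 271 higher and 307 lower, had such a p. Over all 8448 features the CR and AL differences correlated at r = 0.0278 and had the same sign in 52.6%. Without array 11 the values were -0.0774 and 46.6%. Within the CR step, the first and second runs correlated at 0.345, and females and males at 0.317, and without array 11 at 0.227 and 0.17. These are descriptions across features of the same arrays.

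The test of the difference itself, the CR step minus the AL step, called 62 features (0.734%) at a limma adjusted p between 0.00993 and 0.0489. All 62 differences were negative, from -0.539 to -0.196 with a median of -0.289. In each of the 62 the value under CR was lower at 24 months and the value under AL was higher, with medians of -0.167 and 0.115. The mean Z over the 62 ran from 0.642 to 0.74 (median 0.69) in the CR mice of 16 months and from 0.386 to 0.645 (median 0.533) in those of 24 months. In AL mice it ran from 0.505 to 0.68 (median 0.578) and then from 0.605 to 0.861 (median 0.726). The diets thus lay in opposite order at the 2 ages, with overlap between them at both. These levels use the features that the test picked and are a description.

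Only 14 of the 62 (22.6%) had 1 symbol, 2 had several and 46 had none, against 57.7% named over all features. They lay above the array mean more often, with a mean Z above 0 in 83.9% against 48.7%. They also moved together from mouse to mouse, with a median correlation of residuals of 0.451, against -0.00808 among features spaced evenly along the feature order. They came from 17 of the 22 positions of a repeat in feature order that held 34% of the variance of mean Z. With positions centred, 46 of the 62 were still called. The part of level and position in the difference was not tested further.

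The 14 named genes all had a lower difference under CR than under AL. For Zfp882 the AL mice ran from 0.46 to 0.65 (median 0.555) at 16 months and from 0.53 to 0.76 (median 0.64) at 24 months, and the difference of the steps was -0.255 ± 0.054 (SE), with a limma adjusted p of 0.0271. Myof, a ferlin of membrane repair, had -0.33 (adjusted p 0.0271), Csf3r -0.318 (0.0272), Nr2e1 -0.247 (0.0323) and Pdxdc1 -0.27 (0.0328). Nr2e1 in AL mice had medians of 0.85 and 0.875, so its difference came more from the CR mice (-0.179) than from the AL mice (0.068).

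The remaining 9 had adjusted p values of 0.0328 to 0.0489. They were the histone demethylase gene Kdm7a (-0.296), the tetraspanin gene Tspan31 (-0.196), Banp (-0.278), Tmc6 (-0.229), Ypel1 (-0.3), Nudcd2 (-0.288), Fndc7 (-0.287), the deubiquitinase gene Usp32 (-0.256) and the sialyltransferase gene St6galnac3 (-0.353). In Tspan31 the AL value, 0.119, was the larger one, and in CR mice the difference was -0.0769. St6galnac3 gave like sizes in both diets, -0.175 under CR and 0.178 under AL. Other features of these genes did not repeat the calls. Those of Ypel1 and Kdm7a had differences of the opposite sign, 0.108 and 0.0721. Those of Nudcd2 and Usp32 had -0.0705 and -0.105. The limma adjusted p values of these other features ran from 0.607 to 0.897.

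The count rested on single mice. Without array 11 it was 7, all of them among the 62 and none of them a named gene by this test, since the adjusted p of the 14 then ran from 0.085 (Myof) to 0.151 (Fndc7). The differences of the 14 then ran from -0.341 (St6galnac3) to -0.198 (Tspan31), with Zfp882 at -0.228, Nr2e1 at -0.216 and Csf3r at -0.272. Without the CR female replicate 2 of 24 months 6 were called, without the CR female replicate 4 of 24 months 8, and without the CR female replicate 1 of 16 months 15. Leaving out the CR male replicate 1, 2, 4 or 5 of 16 months gave 41, 36, 19 and 33. The count was above the 62 without the CR female replicate 1 (116) or 3 (160) or the CR male replicate 2 (127) or 3 (96) of 24 months, and without the CR male replicate 3 (81) or the CR female replicate 3 (64) of 16 months. Without the AL mouse whose label fields disagreed 11 were called. The direction was the same in both runs for all 62, with medians of -0.355 and -0.182. The 62 were picked by a fit over both runs together, so this shared direction is no separate support. Just 6 features were called whichever of the 17 CR mice was left out, and none of them had a gene symbol.

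**Figure D3:**
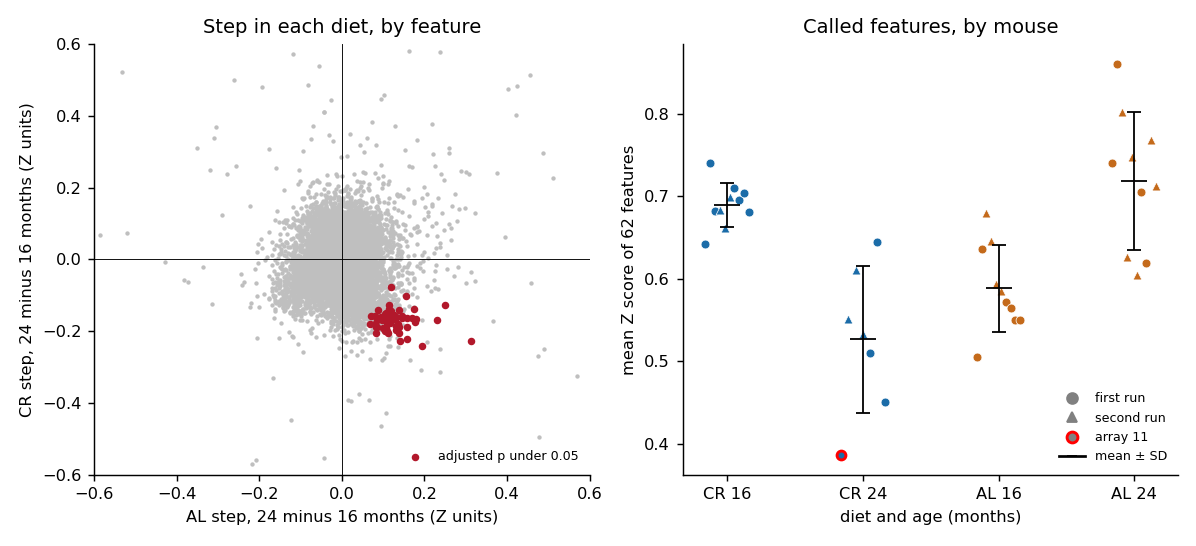
Left, the difference between 24 and 16 months (Z units) in AL mice on the horizontal axis and in CR mice on the vertical axis, for each feature within ±0.6 (8 of 8448 lie outside), with the 62 called for the diet difference in red, all at the lower right. Right, the mean Z score of those 62 features in each mouse by diet and age, with bars for mean ± SD; array 11 (ringed) is the lowest, at 0.386.

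The genes with the smallest p in the AL step were given for their CR values. Usp7, a deubiquitinase, had an AL difference of 1.05 and a CR difference of -0.286 ± 0.284 (SE), which was 0.17 in the first run and -1.28 in the second. Ssbp1, the mitochondrial single-strand DNA-binding protein, had 0.298 under AL and 0.142 under CR on 1 feature, but -0.036 and -0.041 on another. In the CR mice the first Ssbp1 feature lay from -2.66 to -1.88 and Usp7 from -4.02 to -1.9, far below the array mean. Vps13d had 0.159 under AL and -0.0201 under CR. Among the lower ones, Ephx1, an epoxide hydrolase, had -0.17 and 0.0471, and Atxn2l had -0.169 and -0.0789.

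Wrn, the RecQ helicase mutated in Werner syndrome, lay between -0.12 and 0.27 (median 0.225) in CR mice of 16 months and between 0.05 and 0.28 (median 0.21) in those of 24 months. The groups overlapped, and the CR difference was 0.00748 ± 0.0512 (SE). The AL difference was -0.181 ± 0.0466 (SE) with a limma adjusted p of 0.502. The difference between the diets had an adjusted p of 0.202, so the steps were not shown to differ for this gene.

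The sex difference of the CR step, in females minus in males, called 0 features (0%), with 304 (3.6%) at an unadjusted p under 0.05 and a smallest adjusted p of 0.991. Without array 11 it also called 0, with 211 features at an unadjusted p under 0.05. The CR step alone gave 1342 features (15.9%) at an unadjusted limma p under 0.05 in males and 321 (3.8%) in females. The male count was not made without array 11. Array 11 is 1 of the 3 older males, and all 3 are of 673 days. The genes with the smallest p for the sex difference were Mrpl52 of the mitochondrial ribosome (-0.269 in males, 0.0431 in females), Dock4, Wrnip1 (-0.224 and 0.0932), Bnip3l and Prkar2a (-0.19 and 0.107).

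Of 35 gene lists, 32 had at least 1 named feature, and 0 features of any list passed the test for the CR step. Over all features with 1 symbol, 53% lay higher at 24 months, which is the share to set beside each list. Of all features, 8.24% were higher and 8.62% lower at an unadjusted p under 0.05. Without array 11 these shares were 2.36% and 4.56%. The microglia and macrophage list stood at the top by its median. It holds C1q and Fc receptor genes, the lysosomal genes Ctsd and Grn, and the tetraspanin genes Cd63 and Cd9. The microglial markers Aif1, Csf1r, Ctss, Tyrobp, Cx3cr1 and Cd68 had no feature with 1 symbol. Whether this list reflects microglia alone was not tested. Over its 11 features of 10 genes, 10 were higher and 1 lower at 24 months, with a median difference of 0.076, against 0.0021 over all features. An unadjusted p under 0.05 was found in 4 of the 11 features, all higher, against 8.24% of all features. The list was drawn up with earlier results on Ctsd and C1qa known. Both genes are among these features, so the count is no separate support. Without array 11 the median was 0.0891 and 5 features had such a p, against 2.36% of all features. The median was 0.0796 in the first run and 0.0625 in the second, and 0.0526 in females and 0.103 in males. In AL mice it was 0.0365.

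Ctsd had 2 features. On the first it ran from 0.08 to 0.3 (median 0.18) in the younger CR mice and from 0.24 to 0.49 (median 0.42) in the older ones, with 5 of the 7 above all younger mice. The difference was 0.2 ± 0.0623 (SE), with a limma adjusted p of 0.157, and the other feature gave 0.129 ± 0.0522 (SE). Array 11 did not widen the first difference, which was 0.222 without it. The AL mice overlapped, with medians of 0.36 and 0.385, and the difference between the diets had limma adjusted p values of 0.534 and 0.656.

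C1qa, the A chain of the complement initiator C1q, ran from -0.8 to -0.51 (median -0.645) and then from -0.67 to -0.38 (median -0.48). Its difference was 0.154 ± 0.0648 (SE), with an adjusted p of 0.237 in limma, and it was 0.15 without array 11. Its partners C1qb and C1qc had 0.076 ± 0.0432 (SE) and 0.0709 ± 0.0482 (SE). C1qb was at -0.0075 in the second run, and C1qc at -0.0158 in females. Grn, which encodes progranulin of lysosomes, had 0.125, with 0.0604 in the first run and 0.258 in the second. The Fc receptor genes Fcgr3, Fcgr1 and Fcer1g had 0.0874, 0.0397 and 0.0243, the tetraspanin gene Cd63 had 0.0584, and Cd9 was the lower feature at -0.0556.

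The mean Z over the 11 features ran from 0.000909 to 0.127 (median 0.109) in the CR mice of 16 months and from 0.101 to 0.24 (median 0.19) in those of 24 months. Only the CR female replicate 4 of 24 months lay within the younger range, at 0.101, and array 11 lay at 0.19. In AL mice it ran from 0.0273 to 0.294 (median 0.169) at 16 months and from 0.132 to 0.285 (median 0.186) at 24 months. In bulk tissue, more cells of a type and more RNA per cell cannot be told apart. The list was drawn up with earlier results of these data known, which included Ctsd and C1qa.

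**Figure D4:**
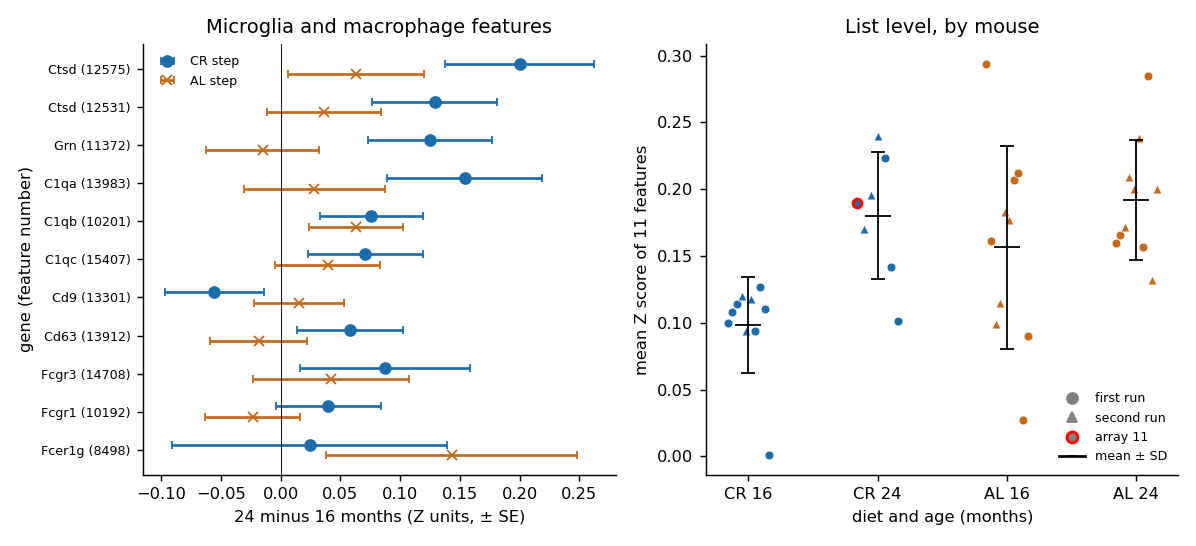
Left, the difference between 24 and 16 months (Z units ± SE) for the 11 microglia and macrophage features in CR mice (circles) and AL mice (crosses). Right, the mean Z score of the 11 features in each mouse by diet and age, with circles for the first run, triangles for the second and bars for mean ± SD; 6 of 7 older CR mice lie above the highest younger CR mouse, at 0.127.

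The complement and cytokine list had 10 of 12 features higher, with a median of 0.0561 and 0.0494 without array 11. It had 0 features at an unadjusted p under 0.05, against 8.24% higher and 8.62% lower over all features. Its leading members were Stat3, a transcription factor of cytokine signaling, with 0.0722, 0.118 and 0.0757 on 3 features, and Rela, a subunit of NF-kB, with 0.0747 and 0.024. The antigen presentation and interferon list had 4 of 9 features higher. Within it the GTPase gene Gbp2 had -0.152 and the interferon factor gene Irf9 -0.0752, with AL differences of 0.0763 and 0.0688. Gbp2 was at -0.108 and Irf9 at -0.0902 without array 11.

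Lists of other cells that the tissue could hold were described in the same way. The blood list, 25 features of which most are alpha and beta globin clones that share sequence, was lower in 20 features, with a median of -0.102 and -0.0855 without array 11. Its mean level ran from 0.329 to 0.648 (median 0.546) in the younger CR mice and from 0.303 to 0.515 (median 0.468) in the older ones, and the groups overlapped. The astrocyte list had a median of 0.0237, the meninges and matrix list -0.00648, the neuron list -0.0265 and the endothelium and mural list 0.0376. Of oligodendrocytes only 3 genes were measured, Cryab at 0.102, Gsn at -0.086 and Car2 at -0.0167. The progenitor genes Sox6, Vcan and Ptprz1 had -0.16, 0.0132 and 0.00288, the Schwann cell gene Pmp22 had -0.0908, and the muscle genes Tpm2 and Mylpf had 0.136 and -0.0227. The 3 ependyma and choroid plexus features had a median of -0.0938, which was -0.00689 without array 11. The part of cell makeup in the other differences was not tested.

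Metabolic lists held members in both directions. In the fatty acid and lipid list, 9 of 17 features were higher and 4 of them had an unadjusted p under 0.05, against 8.24% of all features in that direction. They were the acyl-CoA dehydrogenase gene Acadl (0.151), the fatty acid elongase gene Elovl1 (0.301), Hadha of the mitochondrial trifunctional protein (0.153) and the acyltransferase gene Agpat3 (0.111). Hadha ran from -0.32 to -0.03 (median -0.175) and then from -0.13 to 0.04 (median -0.01), was 0.17 without array 11, and had an AL difference of 0.00961. Elovl1 ran from -2.17 to -1.33 (median -1.63) and then from -1.79 to -1.17 (median -1.26). Other beta-oxidation genes lay lower, with Acadvl at -0.105 and Hadh at -0.102. Oxidative phosphorylation had 29 of 53 features higher, with a median of 0.0122, 2 features at an unadjusted p under 0.05 in each direction against 8.24% higher and 8.62% lower over all features, and the complex I gene Ndufs7 at -0.126 first by p. Glycolysis and the TCA cycle had 16 of 26 higher, and the cytosolic ribosome had 41 of 95 higher with a median of -0.00524.

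Nutrient sensing, the route through which a lowered food intake is relayed, had 9 of 20 features higher and 11 lower, with a median of -0.00371. The 3 features with an unadjusted p under 0.05 were higher, against 8.24% of all features, namely Irs1, the insulin receptor substrate (0.112), the AMPK subunit gene Prkab2 (0.126) and Rptor of the mTOR complex (0.102). Without array 11 they were 0.0881, 0.0738 and 0.0741, and only Irs1 kept such a p. In the clock and glucocorticoid list, Sgk1, a kinase induced by glucocorticoids, ran from -1.55 to -0.94 (median -1.08) and then from -1.55 to -0.92 (median -1.38). Its difference of -0.18 ± 0.0803 (SE) was -0.349 in the first run and 0.0175 in the second, and -0.358 in males and -0.0022 in females. Glcci1 had 0.119 and the clock repressor gene Nr1d2 had 0.0894.

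Protein turnover and genome maintenance gave small medians. Ubiquitin conjugation had 66 of 119 features higher (median 0.00895), with 13 higher and 5 lower at an unadjusted p under 0.05, against 8.24% and 8.62% of all features. Without array 11 they were 6 and 3, against 2.36% and 4.56%. Usp32 was first by p at -0.149, followed by Fbxl6 (0.21) and Trim71 (0.174). The proteasome had 9 of 19 features higher, a median of -0.000126 and 0 features under 0.05, against 8.24% and 8.62% of all features. In the DNA repair and telomere list, 23 of 40 features were higher (median 0.0207). Of them, 6 higher and 2 lower ones were under 0.05, against the same 8.24% and 8.62%. Without array 11 they were 1 and 1, against 2.36% and 4.56%. Rpa2 was higher, while Fanca and Fancg of the Fanconi pathway had -0.156 and -0.163. Rpa2 differed by run within the younger CR mice, from 0.04 to 0.4 in the 7 of the first run and at 1.1, 1.15 and 1.23 in the 3 of the second. Terf1, which binds telomere repeats, had -0.0881.

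The remaining lists gave the following. In lysosome and autophagy, 27 of 57 features were higher, and the 8 higher ones under 0.05 included Ctsd and the autophagy kinase gene Ulk2 (0.113), against 8.24% of all features, with 4 without array 11, against 2.36%. In Wnt and Notch signaling, 14 of 25 were higher, with the Wnt antagonist gene Dkk2 at 0.579 ± 0.235 (SE), which was 0.881 in the first run and 0.035 in the second, and Wnt4 at 0.0929. In the redox list, 19 of 32 were higher, with the glutathione transferase gene Gstm2 at 0.0946, Prdx2 at 0.115 and Sod2 at -0.149. In the synaptic list, 12 of 24 were higher, with Syt11 at -0.188, the scaffold gene Homer2 at 0.119 and Rab3d at 0.109. Chaperones had 27 of 46 higher (median 0.0171) and 0 under 0.05, against 8.24% higher and 8.62% lower over all features. The mitochondrial ribosome had 15 of 26 higher, with Mrpl45 at -0.19 and Mrpl20 at 0.0972. Translation factors and tRNA synthetases had 30 of 51 higher, with Iars at -0.15 and Tars2 at 0.1. Proliferation had 19 of 27 higher with a median of 0.0301, which was -0.00305 without array 11, the centromeric histone gene Cenpa being at -0.172 and the mitotic gene Numa1 at 0.148. Cholesterol synthesis had 4 of 8 higher and 0 under 0.05, and of the 8 genes that the study names, 3 were higher and 0 under 0.05. The same shares of all features, 8.24% and 8.62%, apply to both.

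**Figure D5:**
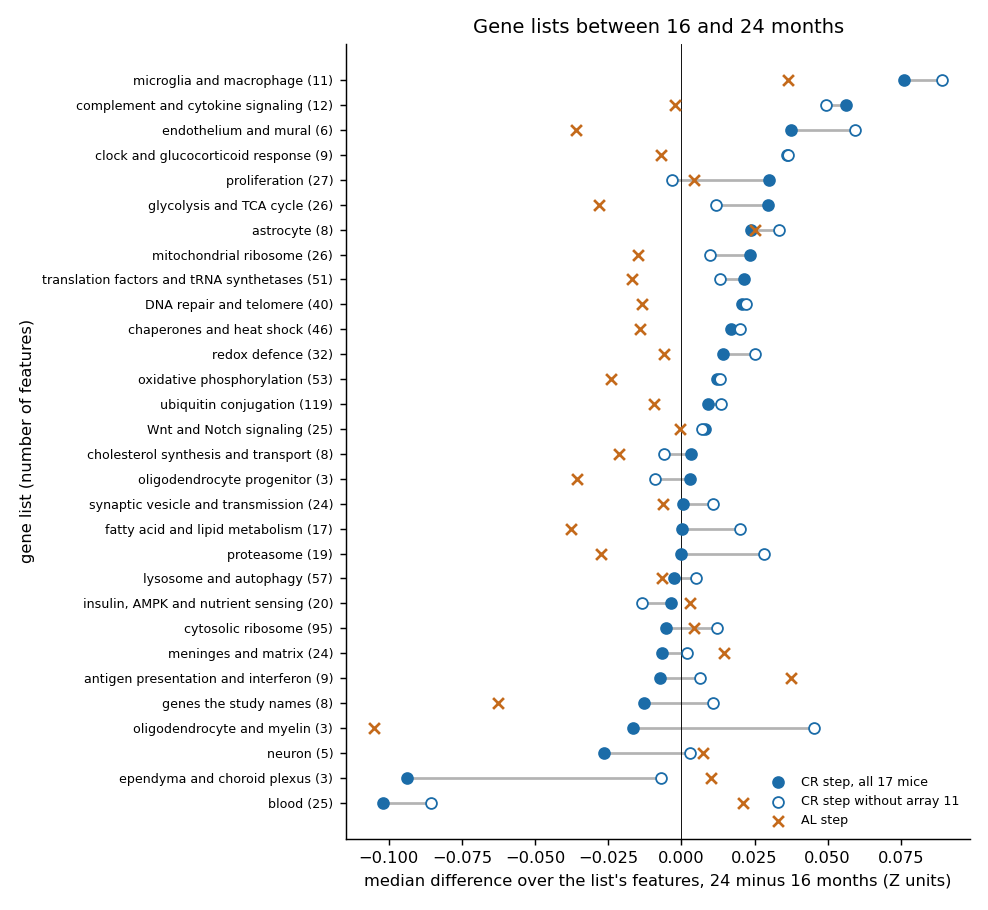
Median difference between 24 and 16 months (Z units) over the features of each of the 30 lists with at least 3 features, for the CR step with all 17 mice (filled), without array 11 (open) and for the AL step (crosses). The microglia and macrophage list lies highest, at 0.076 and 0.0891, and the blood list lowest, at -0.102 and -0.0855.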

How the data were processed

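Total RNA of mouse spinal cord was labelled with 33P and hybridized to filter B of the NIA mouse 17K cDNA set, 1 array a mouse. The deposited values are a score: after extraction with ArrayPro, the authors transformed the intensities of an array to Z scores; the log base and background treatment are not given in the sources used here. Z scores rank a feature against its own array, so a shift shared by most features is not seen, and precision is limited by the number of arrays. The labels do not give litters or batches, so p-values measure the spread between these mice.

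Differences were fitted with limma 3.58.1 in R 4.3.3 on the 37 arrays of 16 and 24 months, with 8 means (age, diet, sex) and the run as terms, 28 residual degrees of freedom, sexes weighted equally, 2-sided tests and Benjamini-Hochberg adjustment over 8448 features at 0.05. Errors are SEs of the fit. Scripts were tested on simulated data. The members and gene lists were chosen with earlier results of these data known. Named genes were the 12 higher and 12 lower features with 1 symbol and the smallest p for the CR step, 5 each for the diet and sex differences, 3 higher and 3 lower for AL, up to 3 a list, and Wrn, Ctsd, C1qa and Sgk1; all 14 named calls of the diet difference, further list members and the genes of the first steps of the study's selection were added after their values were seen. Symbols came from the platform annotation, 4861 of 4875 matching RefSeq by gene ID, and clone sequences were not used here. Alternatives covered the run, the arrays fitted, scaling, filter position, weights, blocks and each CR mouse left out.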

Additional observations from a re-analysis of the deposited data

Results flagged for a closer look

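The value of array 11 on the second principal component, 21, lay far from those of the other older CR mice, by a gap test of the 7 that flags about 1 group in 20 by chance. Of 48 groups of older or younger CR mice tested the same way on the 24 named features of the CR step, 0 were flagged.

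The step differed between the diets, by the limma test of the difference itself, for 14 named genes: Kdm7a (-0.296), Nr2e1 (-0.247), Pdxdc1 (-0.27), Myof (-0.33), Tspan31 (-0.196), Banp (-0.278), Zfp882 (-0.255), Tmc6 (-0.229), Ypel1 (-0.3), Nudcd2 (-0.288), Fndc7 (-0.287), Usp32 (-0.256), Csf3r (-0.318) and St6galnac3 (-0.353). None of the 14 was called without array 11, when their differences ran from -0.341 to -0.198. Other features of Ypel1 and Kdm7a had the opposite sign, 0.108 and 0.0721, and those of Nudcd2 and Usp32 had -0.0705 and -0.105 and were not called.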

How the results depend on the processing

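The CR, AL and sex comparisons gave 0 calls in limma in most settings, the exceptions being 5 calls for the CR step within the second run (Ralgapb, Gm5622 and 3 unnamed clones) and 209 features by the first steps of the study's selection. The diet difference called 62 features, and 14 without the run, 0 with all 65 arrays and no run term, 0 with the 62 arrays left without 3 that stood apart at 6 months, 0 within the first run, 2 within the second (Ralgapb and Usp7), 37 after quantile normalization, 7 after median and MAD scaling, 126 of 4117 features with a mean Z above 0, 117 with array weights, 152 with rounds of arrays as a random block, 11 without the AL male replicate 2 of 24 months, 69 with positions centred (68 lower, 1 higher), 6 with positions centred and without array 11, and 6 to 160 with 1 CR mouse left out. The cause was not tested. Ralgapb, Gm5622 and Usp7 are named because of the fits within the second run. Of the values of single features, 1432 kept their direction and side of the threshold, 219 were no longer past it and 8 reversed: the difference of Wrn, near 0, was -0.00375 in the first run, -0.0025 in the second, -0.0179 in females and -0.0267 to 0.0369 with 1 CR mouse left out, below 0 without 4 of them, and that of Sgk1 was 0.0175 in the second run. The count of 8 did not take in every feature described above. C1qb, at 0.076, was -0.0075 in the second run, and C1qc, at 0.0709, was -0.0158 in females. Usp7 also changed sign between the runs. No paired analysis was possible because the labels give no replicate numbers, and the rounds are stretches of array numbers that pair no mice. Differences of about 0.1 are near the limit, the SE of the CR step having a median of 0.053.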
